A study of Mus musculus with 14 samples.

Results

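The genes of cholesterol and fatty acid synthesis were followed in the spleen across mouse models of psoriasis-like skin inflammation. The set held 30 genes, chosen by symbol for their place in the pathway, out of 22116 named genes in the count table. It comprised 7 enzymes of the mevalonate arm, 11 enzymes that make squalene and turn it into cholesterol, 6 regulators and carriers and 6 genes of fatty acid synthesis. All 30 were among the 15159 genes tested, and none had fewer than 125 counts in any library. The spleens came from wild-type female BALB/c mice aged 6 to 8 weeks, and each of the 14 libraries was made from poly(A) RNA of whole spleen. The control group of 3 mice received petrolatum vehicle on back and ears, although the design text calls these mice untreated. Imiquimod, a Toll-like receptor 7 agonist, was given daily for 5 days as a 5% cream, to the dorsal skin of 4 mice (imiquimod-dorsal) and to the ear of 4 mice (imiquimod-ear). Recombinant IL-23, a cytokine of the type 17 axis, was given to 3 mice by intradermal injection, 4 times over 7 days with 1 µg for each ear (IL-23-ear). No group injected with vehicle was among the samples, so the IL-23-ear mice were compared with the petrolatum controls. The labels place every library in 1 batch, and a library is named below by its group and the replicate number in its label. Every value is from spleen. Below, "on dorsal skin" and "on the ear" name the site where imiquimod was applied, not the tissue that was measured.

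Cholesterol is built from acetyl-CoA through mevalonate, isoprenoids and squalene, and fatty acids are built from the same acetyl-CoA by a separate branch. Transcription of both branches is driven by the SREBP factors, of which SREBP-2 (gene Srebf2) acts mainly on sterol genes and SREBP-1 (Srebf1) mainly on fatty acid genes. When sterols are plentiful, the INSIG proteins hold SCAP and its SREBP cargo in the endoplasmic reticulum, and when sterols are scarce the complex moves to the Golgi and the factor is released. Lymphocytes are known to raise this programme before they divide.

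In the control spleens, levels per kilobase of the canonical transcript spanned a wide range. Scd1 stood first with 104 ± 5.66 CPM per kilobase (SD, n = 3), where CPM is the count of a gene scaled to the library's TMM-adjusted total. Acly followed with 47.0 ± 1.24 and Srebf2 with 41.8 ± 2.94 CPM per kilobase, a pair separated by little more than their spread. Elovl6 was lowest with 1.48 ± 0.347, and Hsd17b7, at 1.86 ± 0.0487, lay little further above it than the SD of Elovl6. All values below are CPM without length correction unless stated, and they compare a gene with itself across libraries.

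Promoter windows were shown for members that represent the patterns described below: Idi1 and Nsdhl, among the enzymes raised in the imiquimod-ear group, and Hmgcs1 and Insig1, both lowered in the imiquimod-dorsal group. RefSeq windows on build GRCm38.p6, from 250 bases before to 50 bases after the start, were matched for 24 of the 30 members. The 6 without one were Fdps, Fdft1, Sqle, Stard4, Scd1 and Scd2. The windows shown are chr13:8885356-8885655 for Idi1, chrX:72918271-72918570 for Nsdhl, chr13:119690101-119690400 for Hmgcs1 and chr5:28071162-28071461 for Insig1, all on the plus strand and written 5′ to 3′. Capitals mark matches, on either strand, to TCACNCCAC (a sterol regulatory element as in classical SREBP targets), CCAAT (the NF-Y box) and GGGCGG (the core of an Sp1 site), letters that do not overlap one another in these windows.
Idi1: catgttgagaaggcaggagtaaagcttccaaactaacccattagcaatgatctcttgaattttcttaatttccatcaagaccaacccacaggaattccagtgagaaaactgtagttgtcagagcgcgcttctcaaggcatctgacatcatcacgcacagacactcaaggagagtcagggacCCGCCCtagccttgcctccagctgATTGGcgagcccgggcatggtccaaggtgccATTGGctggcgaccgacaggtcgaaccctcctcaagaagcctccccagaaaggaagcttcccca
Nsdhl: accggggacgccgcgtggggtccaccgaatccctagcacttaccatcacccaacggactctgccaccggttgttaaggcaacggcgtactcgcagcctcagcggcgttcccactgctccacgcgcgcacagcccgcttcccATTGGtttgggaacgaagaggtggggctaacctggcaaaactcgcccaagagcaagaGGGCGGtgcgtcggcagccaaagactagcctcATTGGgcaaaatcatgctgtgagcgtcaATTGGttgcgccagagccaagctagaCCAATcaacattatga
Hmgcs1: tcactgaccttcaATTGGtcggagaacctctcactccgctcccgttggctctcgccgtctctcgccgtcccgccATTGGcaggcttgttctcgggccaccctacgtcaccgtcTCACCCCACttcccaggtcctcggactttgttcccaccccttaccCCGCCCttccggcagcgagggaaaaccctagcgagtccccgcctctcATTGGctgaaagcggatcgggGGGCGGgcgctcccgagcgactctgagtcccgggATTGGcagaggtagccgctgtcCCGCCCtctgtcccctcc
Insig1: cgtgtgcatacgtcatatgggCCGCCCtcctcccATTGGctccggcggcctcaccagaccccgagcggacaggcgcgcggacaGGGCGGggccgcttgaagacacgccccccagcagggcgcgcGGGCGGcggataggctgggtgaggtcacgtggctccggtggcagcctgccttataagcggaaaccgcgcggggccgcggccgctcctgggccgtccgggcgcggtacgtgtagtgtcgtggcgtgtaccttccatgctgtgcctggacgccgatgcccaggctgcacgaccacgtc
Hmgcs1 was the 1 member of 24 whose window held TCACNCCAC, 137 bases before the start, and 1.24% of 32851 RefSeq windows held it. The 24 members had 32 windows, since some genes have several starts. CCAAT was found in 21 of the 32 member windows, from 20 members, and in 37.4% of all windows. GGGCGG was found in 24 of the 32, also from 20 members, and in 35.7% of all windows. These matches describe letters in a short window and do not show that a factor binds there.

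Several features of whole libraries bear on the values. Totals over named genes lay between 28354674 and 40289411 counts. The 12 erythroid markers summed to 933 to 1093 CPM in controls, 12542 to 19631 CPM after dorsal imiquimod, 616 to 4048 CPM after ear imiquimod and 213 to 887 CPM after IL-23. Summed CPM of 12 cell cycle genes was 621 to 1101, 4955 to 6413, 1100.2 to 2804 and 639 to 858 in the same order. Plasma cell markers, 10 in all, summed to 3467 to 5294 CPM in the imiquimod-ear libraries against 1459 to 1726 in the controls, and 10 T cell markers to 218 to 273 CPM in the imiquimod-dorsal libraries against 851 to 1224. Markers of B cells (4951 to 5198 CPM in the controls), T cells and macrophages (2133 to 2401 CPM in the controls), which define spleen tissue, were present in all 14 libraries. Neutrophil markers, 10 in all, summed to 84.1 to 152 CPM in the controls, 1270.0 to 2280.4 after dorsal imiquimod, 178 to 722 after ear imiquimod and 105 to 459 after IL-23. Of these markers 10 were called higher on dorsal skin and 7 on the ear, against 32.3% and 14.3% of all genes. The 10 genes of the type I interferon response summed to 907 to 2158, 262 to 409, 239 to 740.0 and 1504 to 3033 CPM in the same order of groups. Of these genes 9 were called lower on dorsal skin and 8 on the ear, against 27.6% and 6.98% of all genes. Of 10 pancreas markers, the sum reached 372 CPM in imiquimod-dorsal 4 and at most 16.1 elsewhere. In whole spleen, fewer cells of a type and less RNA per cell cannot be told apart, and the part of these shifts in the results below was not tested.

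**Figure D1:**
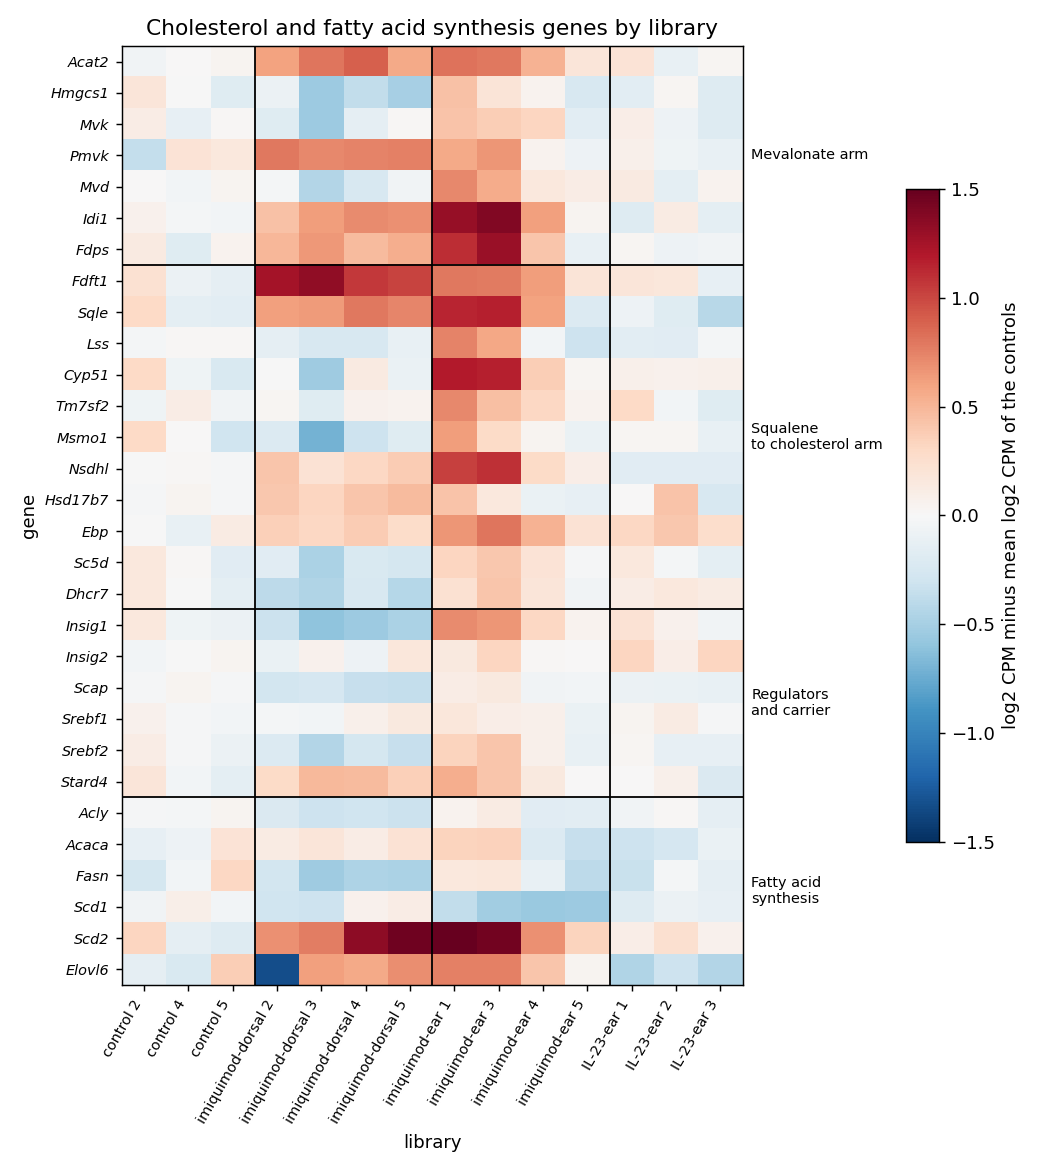
Difference of each gene's log2 CPM from the mean log2 CPM of the 3 controls (colour), for 30 genes (rows, by role) in 14 libraries (columns, by group). Imiquimod-ear 1 and 3 are the reddest columns for the sterol enzymes, while the imiquimod-dorsal columns mix red (Fdft1, Acat2, Pmvk, Scd2) and blue (Insig1, Dhcr7, Fasn).

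Imiquimod on the dorsal skin moved the pathway in both directions. Of the 30 genes 9 rose and 8 fell by edgeR's quasi-likelihood test at an adjusted p under 0.05, in a comparison where 59.8% of all genes were called, 32.3% higher and 27.6% lower. The share of members called, 17 of 30, was near that background. Groups did not overlap for 19 members, 11 higher and 8 lower, against 61.1% of all genes (33% higher and 28.1% lower). Squalene synthase Fdft1 (log2 fold change 1.16) and the desaturase Scd2 (1.09) rose most, and Insig1 (-0.49) and fatty acid synthase Fasn (-0.45) fell most. The median over the 18 sterol enzymes was 0.16 and over the 6 fatty acid genes 0.03, against 0.00 for all genes tested. With library totals in place of TMM, the medians were -0.17 for the sterol enzymes and -0.33 for all genes, and 3 members were called higher and 15 lower. Over all genes that scaling moved the higher calls from 53.9% to 27.5% of calls. Leaving out control 4 reduced the 9 rises to 4, which was the lowest number without any 1 library. The falls numbered 5 without imiquimod-dorsal 3 and likewise without imiquimod-dorsal 5. The calls of Acat2, Pmvk, Fdft1, Scd2, Dhcr7, Insig1, Scap and Acly held without each of the 14 libraries in turn.

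Imiquimod on the ear gave calls for 6 of the 18 sterol enzymes, all higher, and for 2 of the 6 fatty acid genes, 1 in each direction. All 18 sterol enzymes had a log2 fold change above 0 with a median of 0.41, against 0.02 over all genes, and the 6 that passed the test were Acat2, Idi1, Fdps, Fdft1, Nsdhl and Ebp. Insig1 and Scd2 rose as well, and Scd1 was the 1 member that fell. That is 8 of 30 higher and 1 lower, where 21.2% of all genes were called, 14.3% higher and 6.98% lower. Groups did not overlap for 5 members higher and 1 lower, against 13.5% and 11% of all genes (24.6% in all). With library totals the higher calls went from 67.1% to 44.8% of all calls. Imiquimod-ear 5 lay within the control range for 13 of 30 members. Without it 14 members were called higher, among them Sqle, Cyp51, Mvd, Lss, Tm7sf2 and Stard4, while calls over all genes went from 3219 to 4977. Without control 4 the number of members called higher fell to 1, and calls over all genes to 1066. Ebp and Scd1 kept their calls without each of the 14 libraries in turn. In a fit of the 2 groups alone no member was called higher, and 1126 genes were called in all.

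Both imiquimod comparisons used the same 3 control libraries. Fold changes of each gene against control are given side by side in the plot of fold changes.

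**Figure D2:**
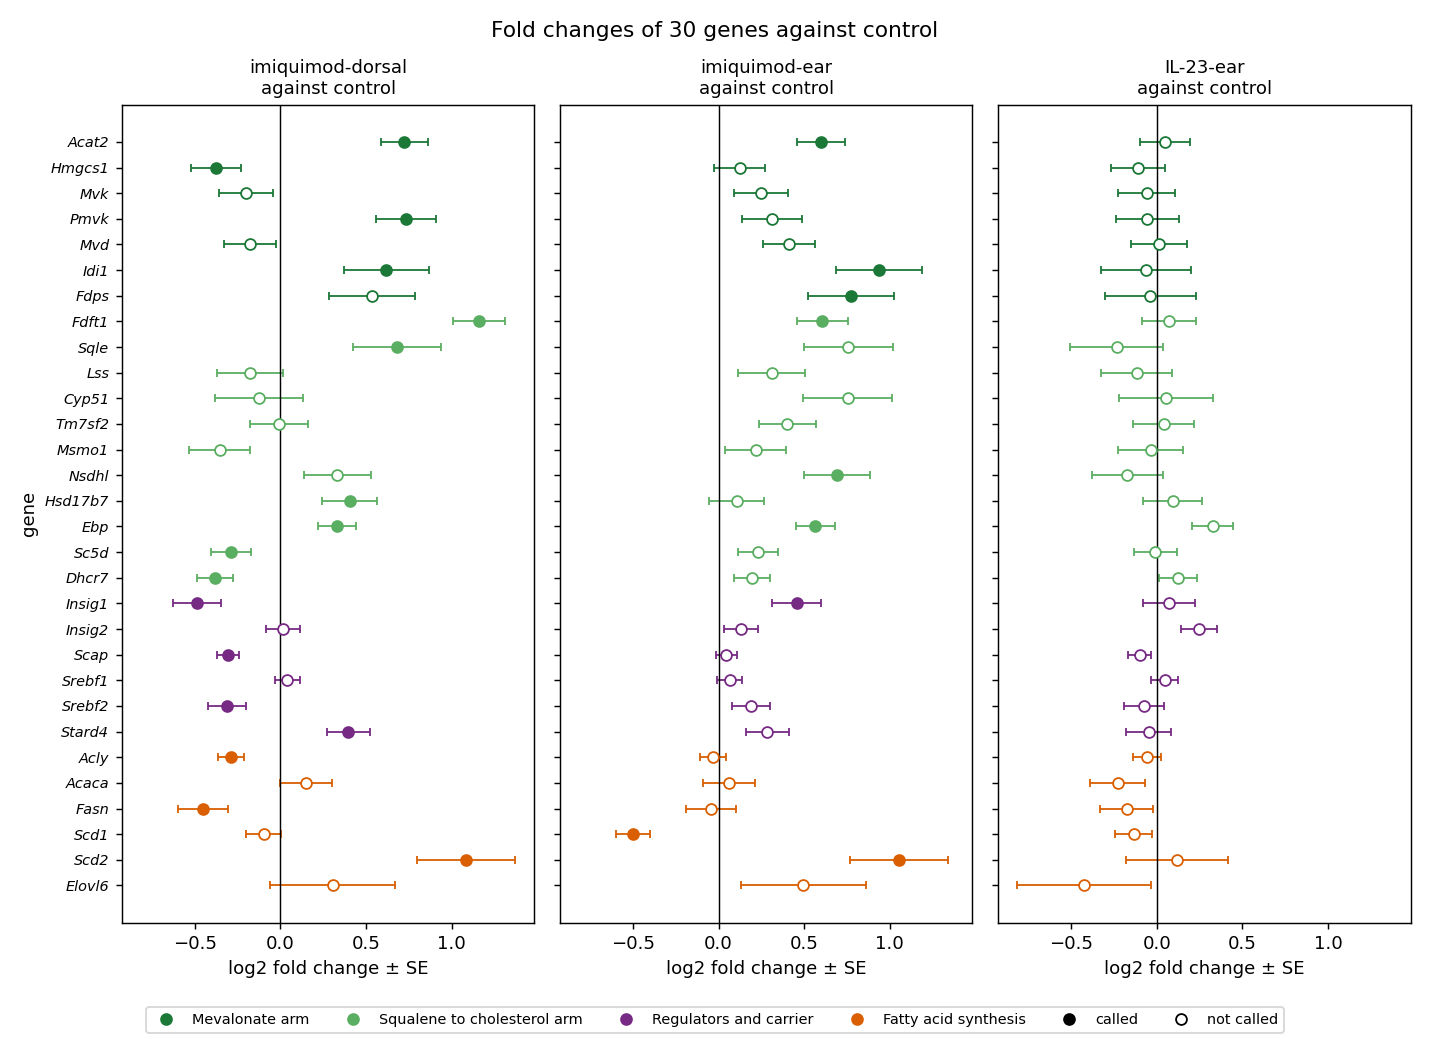
Log2 fold change ± SE (horizontal axis) of each of the 30 genes (vertical axis) in the 3 comparisons with control, from edgeR's fit of all 14 libraries. Filled points passed an adjusted p of 0.05 and open points did not: 17 are filled for imiquimod-dorsal, 9 for imiquimod-ear and 0 for IL-23-ear.

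The mevalonate arm runs from acetoacetyl-CoA to farnesyl diphosphate, and of its 7 genes 3 rose and 1 fell in the imiquimod-dorsal group and 3 rose in the imiquimod-ear group. Of all genes 59.8% were called on dorsal skin and 21.2% on the ear. Idi1, the isomerase that makes the reactive isoprene unit (GRCm39 chromosome 13, 8935537 to 8942487, plus strand), measured 27.9, 26.3 and 26.0 CPM in controls 2, 4 and 5. Its levels were 36.1, 41.3, 43.5 and 43.1 CPM in imiquimod-dorsal 2 to 5, and 65.9, 70.0, 41.0 and 27.5 CPM in imiquimod-ear 1, 3, 4 and 5. In IL-23-ear 1, 2 and 3 it measured 23.4, 29.1 and 24.2 CPM. All 4 imiquimod-dorsal libraries lay above the controls, whereas imiquimod-ear 5 lay among them. The log2 fold change was 0.62 ± 0.25 (SE, adjusted p = 0.0468) on dorsal skin and 0.93 ± 0.25 (adjusted p = 0.0202) on the ear. The dorsal call was lost when any of 11 libraries was left out (0.55 to 0.67, adjusted p of 0.0501 to 0.133). The ear call was lost without any control library, imiquimod-ear 1 or imiquimod-ear 3 (0.71 to 0.93, adjusted p of 0.0539 to 0.0852). Of the 75-base stretches of Idi1, 22.4% also occur in its processed copies and an overlapping gene, so its counts are uncertain.

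Acat2, the cytosolic thiolase that makes acetoacetyl-CoA, rose in both imiquimod groups. It measured 22.1, 23.0 and 23.6 CPM in the controls, 34.9, 39.9, 42.5 and 34.1 in imiquimod-dorsal and 40.2, 39.7, 32.9 and 26.1 in imiquimod-ear. No library of either imiquimod group overlapped the controls. Its log2 fold change was 0.72 ± 0.14 (adjusted p = 0.000509) on dorsal skin and 0.60 ± 0.14 (adjusted p = 0.0096) on the ear, the latter lost when control 2 (0.54, adjusted p = 0.0541) was left out and also when control 4 was (0.57, adjusted p = 0.0527). Acat2 overlaps the chaperonin gene Tcp1 on the opposite strand over 7.3% of its exon bases and has a close copy in Acat3. Tcp1 itself rose by 0.78 on dorsal skin and 0.47 on the ear, and Acat3 by 1.02 on dorsal skin. Tcp1 stood far above Acat2, at 223 to 304 CPM in the controls, 399 to 469 in imiquimod-dorsal and 268 to 418 in imiquimod-ear. The libraries carry no strand, so reads of overlapping genes cannot be told apart.

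Farnesyl diphosphate synthase, encoded by Fdps, measured 30.7, 24.6 and 28.9 CPM in the controls, 39.6, 44.0, 38.8 and 40.7 in imiquimod-dorsal and 60.5, 68.5, 37.4 and 25.8 in imiquimod-ear. It was called on the ear (0.77 ± 0.25, adjusted p = 0.0458), a call that any of 12 left-out libraries ended (0.52 to 0.81, adjusted p of 0.0554 to 0.176). On dorsal skin the adjusted p was 0.0819 although the groups did not overlap, and without imiquimod-ear 5, which alters the shared spread, it was 0.0176. Pmvk, the phosphomevalonate kinase, rose on dorsal skin, where it measured 24.98, 23.8, 24.2 and 24.4 CPM against 11.2, 16.6 and 16.2 in the controls (0.73 ± 0.18, adjusted p = 0.00257). On the ear its log2 fold change was 0.31 (adjusted p = 0.215).

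Hmgcs1, the HMG-CoA synthase whose promoter carries the sterol element shown above, took the other direction on dorsal skin. It measured 60.6, 53.0 and 47.1 CPM in the controls, 49.95, 36.4, 41.1 and 37.7 in imiquimod-dorsal and 72.0, 60.8, 55.4 and 45.2 in imiquimod-ear. Imiquimod-dorsal 2 lay within the control range and the other 3 below it. The fall of 0.38 on the log2 scale (-0.38 ± 0.15, adjusted p = 0.0403) lost its call without control 2 or imiquimod-dorsal 3, 4 or 5 (-0.37 to -0.32, adjusted p of 0.0707 to 0.101). Mevalonate kinase Mvk and the decarboxylase Mvd were not called against control in either group. Mvd measured 22.3 and 19.9 CPM in imiquimod-ear 1 and 3 against 13.1 to 13.9 in the controls and passed without imiquimod-ear 5 (0.46, adjusted p = 0.0288).

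**Figure D3:**
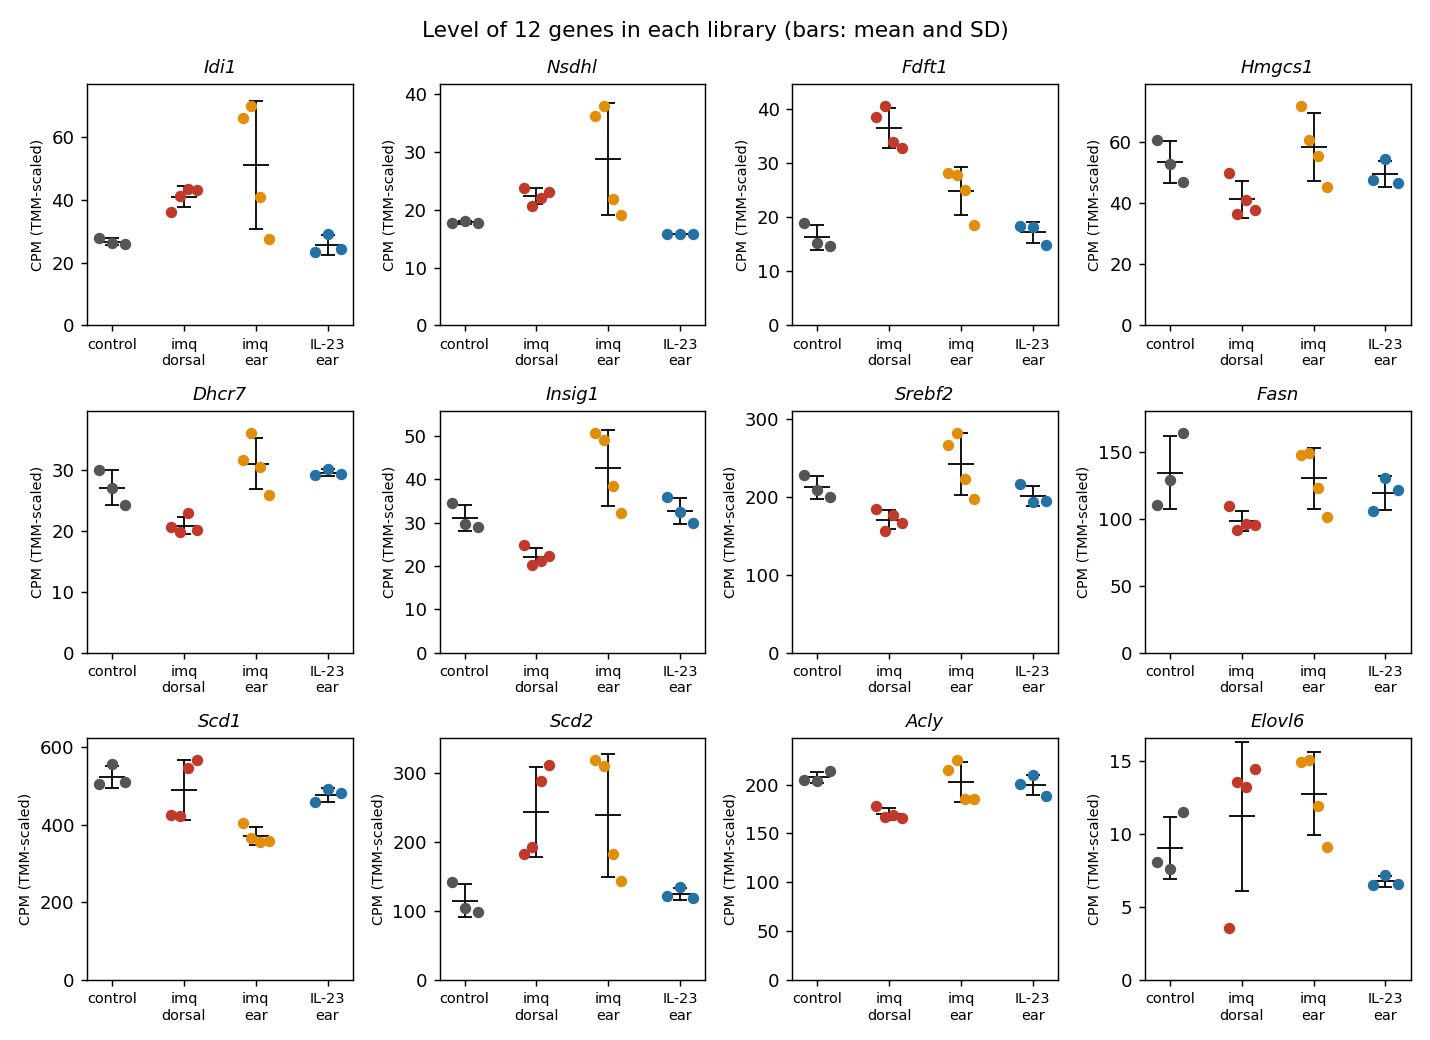
Level in CPM (vertical axis, from 0) of 12 genes in each library, by group (points), with the mean and SD of the group (bars). Idi1, Nsdhl and Scd2 split the imiquimod-ear group into high (1 and 3) and low (4 and 5) libraries, while Dhcr7, Insig1 and Acly are lower in all 4 imiquimod-dorsal libraries than in any control.

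The arm that makes squalene and turns it into cholesterol held 11 genes, of which 4 rose and 2 fell on dorsal skin and 3 rose on the ear, shares near the 59.8% and 21.2% of all genes called. Fdft1, the squalene synthase that commits isoprenoids to sterols (GRCm39 chromosome 14, 63382189 to 63417027, minus strand), measured 19.0, 15.2 and 14.8 CPM in the controls. It reached 38.5, 40.7, 34.0 and 32.8 CPM in imiquimod-dorsal and 28.1, 27.9, 25.02 and 18.5 CPM in imiquimod-ear. Every imiquimod-dorsal library exceeded every imiquimod-ear library, and imiquimod-ear 5 lay within the control range. The log2 fold change was 1.16 ± 0.15 (adjusted p = 2.08e-05) on dorsal skin and 0.61 ± 0.15 (adjusted p = 0.0124) on the ear, the latter lost without control 4 (0.52, adjusted p = 0.0761). Fdft1 shares 24.8% of its exon bases with the cathepsin gene Ctsb on the opposite strand. Ctsb rose by 0.30 on dorsal skin and had a log2 fold change of 0.03 on the ear (adjusted p = 0.816). Its level was far above that of Fdft1, at 1145 to 1236 CPM in the controls and 1291 to 1630 CPM in imiquimod-dorsal. The part of Ctsb reads in the Fdft1 counts was not tested.

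Squalene epoxidase, encoded by Sqle, the oxygen-requiring step after squalene, measured 24.4, 17.9 and 17.7 CPM in the controls and 30.3, 30.9, 34.2 and 33.0 in imiquimod-dorsal. In imiquimod-ear it measured 43.8, 44.5, 30.03 and 17.2 CPM, so imiquimod-ear 5 lay below the lowest control while the other 3 lay above the highest. The dorsal rise of 0.68 ± 0.26 (adjusted p = 0.0365) was lost without any of 9 libraries (0.55 to 0.71, adjusted p of 0.0505 to 0.139). On the ear the log2 fold change of 0.76 missed the threshold (adjusted p = 0.0537) and passed without imiquimod-ear 5 (0.94, adjusted p = 0.000926). Cyp51, the lanosterol demethylase, showed the same split between libraries, with 70.1, 68.9, 39.6 and 31.4 CPM in imiquimod-ear against 37.7, 29.5 and 26.2 in the controls. Leaving out imiquimod-ear 4 brought it past the threshold (0.87, adjusted p = 0.0363), as did leaving out imiquimod-ear 5 (0.90, adjusted p = 0.00803), and 28.3% of its exon bases are shared with genes on the opposite strand, Akap9 among them. Akap9 had a log2 fold change of -0.16 on the ear (adjusted p = 0.182).

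Nsdhl, a sterol dehydrogenase of the demethylation complex (GRCm39 chromosome X, 71961712 to 72002129, plus strand), had a narrow control range of 17.6 to 17.98 CPM. It measured 36.2, 38.0, 21.8 and 19.1 CPM in imiquimod-ear, all above the controls, and 15.8, 15.7 and 15.8 CPM in IL-23-ear, all below them. The rise on the ear (0.69 ± 0.20, adjusted p = 0.0238) was lost without any control, imiquimod-ear 1 or imiquimod-ear 3 (0.50 to 0.66, adjusted p of 0.0598 to 0.0896). On dorsal skin all 4 libraries lay above the controls, at 20.7 to 23.8 CPM, but the log2 fold change of 0.33 was not called (adjusted p = 0.155). Ebp, the sterol isomerase, measured 28.9, 27.0 and 31.6 CPM in the controls and 46.0, 51.0, 41.8 and 34.0 in imiquimod-ear. Its rise on the ear, 0.57 ± 0.11 (adjusted p = 0.00515), was present in all 4 libraries. On dorsal skin Ebp rose by 0.33 ± 0.11 (adjusted p = 0.0204), which was lost without control 2, control 4 or IL-23-ear 1 (0.22 to 0.28, adjusted p of 0.0518 to 0.151) and became -0.01 with library totals in place of TMM.

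The last enzymes of the arm fell in the spleen after dorsal imiquimod. Dhcr7, the reductase that yields cholesterol (GRCm39 chromosome 7, 143376740 to 143402149, plus strand), measured 30.1, 27.0 and 24.4 CPM in the controls and 20.7, 19.9, 22.9 and 20.1 in imiquimod-dorsal, without overlap. Its log2 fold change was -0.38 ± 0.11 (adjusted p = 0.00665) on dorsal skin and 0.19 (adjusted p = 0.204) on the ear, where it measured 31.6, 36.2, 30.6 and 26.0 CPM. Sc5d, the desaturase of the preceding step, fell by 0.29 on the log2 scale on dorsal skin (adjusted p = 0.0454), a call lost without control 2, imiquimod-dorsal 3, 4 or 5 or imiquimod-ear 4 (-0.31 to -0.23, adjusted p of 0.0546 to 0.12). Hsd17b7, the ketoreductase of the demethylation complex, rose by 0.40 on dorsal skin (adjusted p = 0.0436), which any of 12 left-out libraries ended (0.34 to 0.43, adjusted p of 0.0505 to 0.147). Lss, Tm7sf2 and Msmo1, which close the sterol ring, reduce it and remove its methyl groups, had no call against control in either group. Lss measured 24.3 and 21.6 CPM in imiquimod-ear 1 and 3, 14.1 and 11.6 in imiquimod-ear 4 and 5, and 14.1 to 14.7 in the controls. It passed without imiquimod-ear 5 (0.43, adjusted p = 0.0442), as did Tm7sf2 (0.46, adjusted p = 0.0428). Msmo1 passed as a fall on dorsal skin without control 5, imiquimod-ear 1 or imiquimod-ear 5 (-0.54 to -0.41, adjusted p of 0.0216 to 0.0447).

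Among the regulators 3 of 6 genes fell on dorsal skin and 1 rose, and on the ear 1 rose, against 59.8% and 21.2% of all genes called. Insig1, the sterol-sensing anchor of SCAP and itself an SREBP target (GRCm39 chromosome 5, 28276315 to 28283668, plus strand), moved in opposite directions after dorsal and ear imiquimod. It measured 34.5, 29.6 and 29.0 CPM in the controls, 24.8, 20.3, 21.1 and 22.2 in imiquimod-dorsal and 50.7, 49.1, 38.5 and 32.1 in imiquimod-ear. The imiquimod-dorsal libraries all lay below the controls, and of the imiquimod-ear libraries 3 lay above them. The log2 fold change was -0.49 ± 0.14 (adjusted p = 0.00873) on dorsal skin and 0.46 ± 0.14 (adjusted p = 0.0363) on the ear. The ear call was lost without any of 8 libraries (0.33 to 0.51, adjusted p of 0.0522 to 0.151). Compared directly, imiquimod-ear exceeded imiquimod-dorsal by 0.94 ± 0.13 (adjusted p = 7.54e-05), a call that held without each library.

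Srebf2, which encodes SREBP-2, measured 229, 209 and 199.5 CPM in the controls, 184, 156, 176 and 167 in imiquimod-dorsal and 267, 282, 223 and 197 in imiquimod-ear. It fell on dorsal skin by 0.31 on the log2 scale (adjusted p = 0.0247), a call lost without imiquimod-dorsal 3 (-0.27, adjusted p = 0.0647) or 5 (-0.30, adjusted p = 0.0523), and had a log2 fold change of 0.19 on the ear (adjusted p = 0.236). Scap, which escorts SREBP to the Golgi, measured 77.8, 81.4 and 77.8 CPM in the controls and 65.4, 66.5, 62.0 and 61.7 in imiquimod-dorsal (-0.31 ± 0.06, adjusted p = 0.000822). Srebf1 and Insig2 were not called, with log2 fold changes of 0.04 and 0.02 on dorsal skin and 0.07 and 0.13 on the ear. With library totals both were called lower on dorsal skin (-0.30 and -0.32), close to the median of all genes under that scaling, -0.33. Stard4, a cytosolic sterol carrier, rose by 0.40 on dorsal skin (adjusted p = 0.0141), which was lost when control 4 (0.32, adjusted p = 0.0795) was left out and also when control 5 was (0.28, adjusted p = 0.105).

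Of the 6 fatty acid synthesis genes 1 rose and 2 fell on dorsal skin, where 59.8% of all genes were called. On the ear 1 rose and 1 fell, where 21.2% of all genes were called. Fasn, the fatty acid synthase, measured 110.5, 129 and 164 CPM in the controls, 109, 91.9, 96.4 and 95.3 in imiquimod-dorsal and 148, 149, 123 and 101 in imiquimod-ear. Control 5 was the highest library of all 14. The fall on dorsal skin (-0.45 ± 0.15, adjusted p = 0.0164) was lost without control 5 (-0.33, adjusted p = 0.0588). Adipocyte markers moved with this library: Adipoq, the adipocyte hormone adiponectin, was at 4.33 CPM in control 5 and at most 1.504 elsewhere. The 10 adipocyte markers summed to 120.2, 142 and 172 CPM in controls 2, 4 and 5, and to 91.5 to 108 in imiquimod-dorsal, and their part in the fall was not tested. Leptin, another fat hormone, was at 0 in 10 of 14 libraries. Acly, which supplies acetyl-CoA to both branches, fell from 205, 203 and 214 CPM to 178, 167, 169 and 165 in imiquimod-dorsal (-0.29 ± 0.08, adjusted p = 0.00476). Acaca, the acetyl-CoA carboxylase, was not called in either group.

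The stearoyl-CoA desaturases, which put the first double bond into saturated chains, parted from each other. Scd1 and Scd2 are neighbours on GRCm39 chromosome 19, Scd2 at 44281613 to 44295303 on the plus strand and Scd1 at 44382894 to 44399154 on the minus strand. Scd2 measured 142, 103 and 98.9 CPM in the controls, 182, 193, 288 and 312 in imiquimod-dorsal and 319, 309, 183 and 143 in imiquimod-ear. All 8 imiquimod libraries lay above the highest control, imiquimod-ear 5 by a small margin. Its log2 fold change was 1.09 ± 0.29 (adjusted p = 0.00585) on dorsal skin and 1.06 ± 0.29 (adjusted p = 0.0222) on the ear, the latter lost without control 4 or 5 or imiquimod-ear 1 or 3 (0.85 to 0.95, adjusted p of 0.0679 to 0.1). Scd1 measured 505, 557 and 511 CPM in the controls and 405, 365, 356 and 358 in imiquimod-ear, with no overlap. It fell on the ear (-0.50 ± 0.10, adjusted p = 0.00561) and was not called on dorsal skin, where it measured 425, 424, 546 and 567 CPM (-0.10, adjusted p = 0.431). In IL-23-ear 1, 2 and 3 Scd1 measured 458, 493 and 482 CPM, also below every control, but without a call. The adipocyte markers summed to 106 to 118 CPM in imiquimod-ear, below the 120.2 to 172 CPM of the controls without overlap. Of the 8 tested 2 were called lower there, against 6.98% of all genes. The gap between the sums was narrow. Control 2, at 120.2 CPM, had 4 of the 10 markers at 0 counts, and imiquimod-ear 5, at 118 CPM, had none at 0. The part of adipocytes in the fall of Scd1 was not tested. The number of Scd1 counts per Scd2 count, not corrected for length, was 3.56 to 5.38 in the controls, 1.82 to 2.33 in imiquimod-dorsal, 1.18 to 2.50 in imiquimod-ear and 3.68 to 4.08 in IL-23-ear. Every imiquimod library, imiquimod-ear 5 included, thus had a lower ratio than every other library. Of their 75-base stretches 2.04% of Scd1 and 1.19% of Scd2 occur in another gene, mostly of the same family.

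Elovl6, the elongase that extends palmitate, was spread widely. It measured 8.08, 7.58 and 11.5 CPM in the controls, 3.55, 13.6, 13.2 and 14.5 in imiquimod-dorsal and 15.0, 15.1, 11.9 and 9.13 in imiquimod-ear. Imiquimod-dorsal 2 stood far below the other 3 libraries of its group. With it the log2 fold change was 0.30 ± 0.36 (adjusted p = 0.493), and without it 0.60 (adjusted p = 0.0178).

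**Figure D4:**
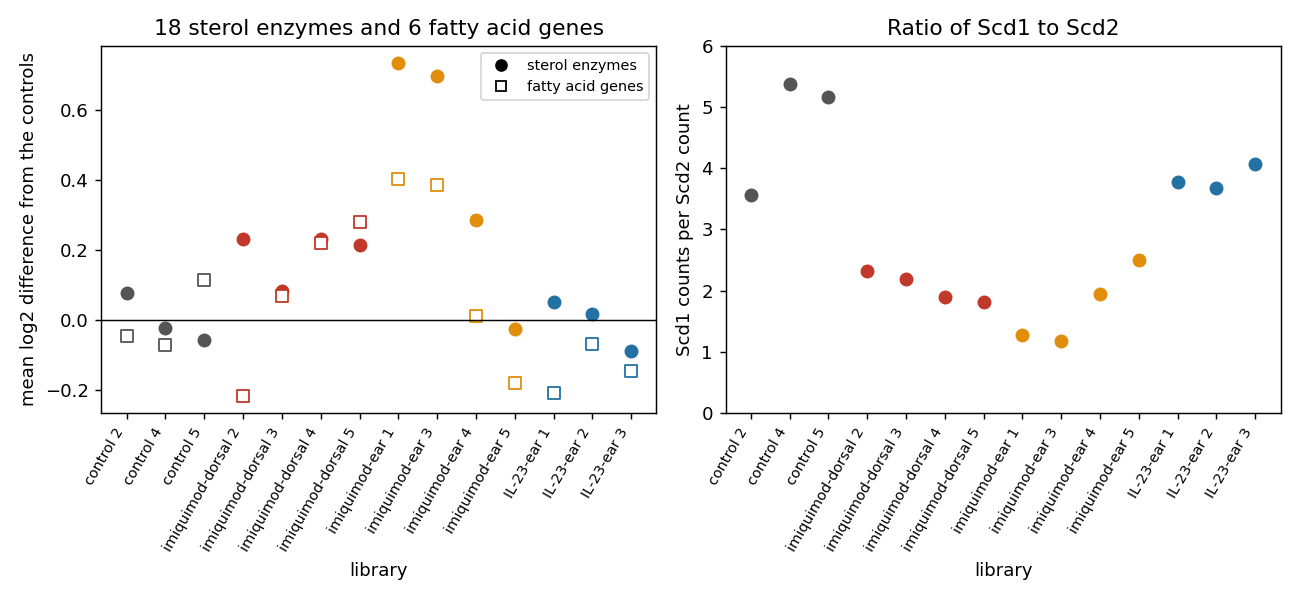
Left, mean log2 difference from the control mean (vertical axis) over 18 sterol enzymes (filled circles) and 6 fatty acid genes (open squares) in each library (horizontal axis). Right, counts of Scd1 per count of Scd2, which are below 2.6 in all 8 imiquimod libraries and above 3.5 in the other 6.

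Single libraries showed how far sterol and fatty acid genes moved together. The mean log2 difference from the controls over the 18 sterol enzymes was 0.73, 0.70, 0.29 and -0.03 in imiquimod-ear 1, 3, 4 and 5. Over the 6 fatty acid genes it was 0.40, 0.39, 0.01 and -0.18 in the same libraries. The sterol mean exceeded the fatty acid mean in all 4, by 0.15 to 0.33, with imiquimod-ear 1 and 3 high and imiquimod-ear 5 low for both. In imiquimod-dorsal 2 to 5 the sterol means were 0.23, 0.08, 0.23 and 0.22. The fatty acid means were -0.22, 0.07, 0.22 and 0.28 there, and the low value of imiquimod-dorsal 2 includes Elovl6. The fatty acid means also include Scd2, at 98.9 to 142 CPM in the controls. It was at 288 and 312 CPM in imiquimod-dorsal 4 and 5, where Fasn and Acly lay below every control. In imiquimod-ear 1 and 3 Scd2 was at 319 and 309 CPM, and Scd1 lay below every control. The fatty acid mean thus does not describe each gene. In IL-23-ear 1, 2 and 3 the sterol mean also exceeded the fatty acid mean, by 0.26, 0.09 and 0.06. The controls ranged from -0.06 to 0.08 for sterol enzymes and from -0.07 to 0.12 for fatty acid genes. Their sterol mean minus fatty acid mean was 0.12, 0.05 and -0.17 in controls 2, 4 and 5. That range also held the difference in IL-23-ear 2 and 3 and in imiquimod-dorsal 3, 4 and 5.

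The order of the imiquimod-ear libraries was similar for most members. Imiquimod-ear 1 and 3 were the top pair for all 18 sterol enzymes and for all 30 members, against 26% of all genes tested. Imiquimod-ear 5 was lowest for 18 of 18 sterol enzymes and 27 of 30 members, against 35.2% of all genes. The genes were read from the same libraries, so this count is a description of 4 spleens. Cell cycle genes summed to 2246, 2804, 2274 and 1100.2 CPM in imiquimod-ear 1, 3, 4 and 5, and plasma cell markers to 4748, 5294, 3623 and 3467 CPM. Erythroid markers summed to 1559, 616, 4048 and 1097 CPM in the same libraries. The mean log2 difference over the 18 sterol enzymes was 0.73, 0.70, 0.29 and -0.03 in these libraries. Of the 18, 10 were highest in imiquimod-ear 1 and 8 in imiquimod-ear 3. The part of these cells in the levels of the sterol enzymes was not tested.

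IL-23 injected into the ear gave no call among the 30 genes by edgeR, DESeq2 or limma-voom. At an unadjusted p under 0.05, 2 members were higher and 0 lower by each of the 3 tools, and by edgeR these were Ebp and Insig2. The share of all genes at that unadjusted threshold is not given here, so these 2 are not set against a background. At the adjusted threshold edgeR called 0.0528% of all genes (0.0462% higher and 0.0066% lower). Groups did not overlap for 2 members higher and 4 lower, against 9.75% and 6.98% of all genes (16.7% in all). The median log2 fold change was -0.02 over the sterol enzymes and -0.16 over the fatty acid genes, with 0.01 for all genes. Ebp had the largest positive value, 0.33 ± 0.12 (adjusted p = 0.446), with 36.1, 38.6 and 35.1 CPM, all above the controls. Elovl6 had the largest negative value, -0.42 ± 0.39 (adjusted p = 0.823). The absence of a call does not show that levels were equal.

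The models were also compared with each other directly. Imiquimod-ear against imiquimod-dorsal gave 14 members higher and 3 lower (Pmvk, Fdft1 and Scd1), where 47.7% of all genes were called, 23.3% higher and 24.5% lower. Groups did not overlap for 8 members higher and 3 lower, against 19.8% and 23.1% of all genes (42.9% in all). With library totals the higher calls went from 48.7% to 75.1% of all calls, and 1 member was called lower. The median over the 18 sterol enzymes was 0.38, against 0.025 over all genes. Of the 14 higher genes, Hmgcs1 (0.50), Mvd (0.59), Cyp51 (0.88), Msmo1 (0.57), Sc5d (0.52), Dhcr7 (0.57), Insig1 (0.94), Scap (0.35), Srebf2 (0.50) and Acly (0.25) kept the call without each of the 14 libraries. The others were Mvk (0.45), which was lost without imiquimod-dorsal 3 (0.35, adjusted p = 0.0625), Lss (0.49), Tm7sf2 (0.41) and Fasn (0.41). Lss was lost without any of 6 libraries (adjusted p of 0.058 to 0.113), Tm7sf2 without any of 7 (0.0545 to 0.116) and Fasn without any of 5 (0.0537 to 0.0658). Fdft1 was lower on the ear by -0.55 ± 0.14 (adjusted p = 0.00428) and Scd1 by -0.40 ± 0.09 (adjusted p = 0.00328), while Pmvk (-0.42) was lost without any of 11 libraries (adjusted p of 0.0529 to 0.132). Without imiquimod-ear 5 the higher calls numbered 18. Akap9, which overlaps Cyp51 on the opposite strand, was at 42.8 to 49.4 CPM in imiquimod-dorsal and 50.5 to 64.1 CPM in imiquimod-ear. Mvd shares 20.5% of its exon bases with Gm51557 on the opposite strand. The part of these overlaps in the calls of Cyp51 and Mvd was not tested.

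IL-23-ear against imiquimod-ear gave 7 members lower and 1 higher, where 17.3% of all genes were called, 10.2% lower and 7.06% higher. Groups did not overlap for 1 member higher and 5 lower, against 13% and 12.5% of all genes (25.6% in all). The lower ones were Acat2 (-0.55), Idi1 (-0.999), Fdps (-0.81), Fdft1 (-0.53), Sqle (-0.99), Nsdhl (-0.86) and Scd2 (-0.94), and Scd1 was higher (0.36 ± 0.10, adjusted p = 0.0267). All 18 sterol enzymes had a log2 fold change below 0, with a median of -0.38, against -0.02 over all genes. Without imiquimod-ear 5, 17 members were lower, and calls over all genes went from 2623 to 4463. Without imiquimod-ear 1 or without IL-23-ear 3, 1 member was lower. Nsdhl alone kept its call without each library.

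Further genes of the pathway were read from lists, and their counts stand against 59.8% of all genes called on dorsal skin (32.3% higher, 27.6% lower) and 21.2% on the ear (14.3% higher, 6.98% lower). Of 10 further sterol and isoprenoid enzymes 6 rose and 1 fell on dorsal skin, with a median of 0.46, and 5 rose on the ear, with a median of 0.28. Lbr, the lamin B receptor that also reduces sterols, measured 195, 191 and 191 CPM in the controls and 564, 677, 563 and 509 in imiquimod-dorsal (1.59 ± 0.11, adjusted p = 5.62e-07). On the ear it measured 242, 260.0, 283 and 205 CPM (0.36 ± 0.11, adjusted p = 0.0274). Fntb, a subunit of farnesyltransferase, rose by 0.98 on dorsal skin and Coq2, of ubiquinone synthesis, fell by 0.49 on the log2 scale. Dhdds, which extends farnesyl diphosphate towards dolichol, was at 38.6, 42.0 and 43.6 CPM in the controls and 65.7, 77.0, 58.9 and 48.7 in imiquimod-ear (0.60 ± 0.12, adjusted p = 0.00568). Erg28, a scaffold of the demethylation complex, rose by 0.37 on the ear (adjusted p = 0.0151).

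Of 10 genes that process SREBP or turn over the sterol sensors, 4 rose and 2 fell on dorsal skin and 2 rose on the ear, shares near the 59.8% and 21.2% of all genes called. Rnf139, a ubiquitin ligase of the endoplasmic reticulum, rose on dorsal skin by 0.79 ± 0.12 (adjusted p = 6.79e-05). Spring1, needed for SREBP signalling, fell by 0.57 on the log2 scale (adjusted p = 8.00e-05). On the ear the called genes were Fbxw7 (0.23) and Syvn1 (0.37).

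Among 17 genes of sterol export, esterification and oxysterols, 2 rose and 7 fell on dorsal skin, with a median of -0.22, where 59.8% of all genes were called and 27.6% were lower. Cyp27a1, the sterol 27-hydroxylase, measured 25.7, 25.9 and 16.7 CPM in the controls and 6.84, 9.38, 6.70 and 7.78 in imiquimod-dorsal (-1.57 ± 0.23, adjusted p = 7.06e-05). Npc2, the lysosomal cholesterol carrier, fell by 0.52 on the log2 scale, and Scarb1, the HDL receptor, rose by 0.50. On the ear edgeR and limma-voom called 0 of the 17, each with 2 lower and 0 higher at an unadjusted p under 0.05, whereas DESeq2 called 2 lower. The share of all genes at the unadjusted threshold is not given here.

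Of 20 further genes of fatty acid synthesis 18 were tested, and 9 rose and 3 fell on dorsal skin with a median of 0.49, where 59.8% of all genes were called and 32.3% were higher. Mid1ip1, an activator of acetyl-CoA carboxylase, measured 32.7, 37.5 and 42.7 CPM in the controls and 92.0, 109.7, 102 and 97.5 in imiquimod-dorsal (1.41 ± 0.12, adjusted p = 9.7e-07). Elovl1 rose by 0.98 and Fads1 by 0.78, enzymes that lengthen and desaturate chains. On the ear Elovl1 (0.33) and Mid1ip1 (0.47) rose and Thrsp (-1.90 ± 0.54, adjusted p = 0.0249) fell. Thrsp, a lipogenic gene of fat and liver, was at 1.12, 3.26 and 8.78 CPM in controls 2, 4 and 5 and at 0.690 to 1.91 CPM in imiquimod-ear. Adipoq was at 0.104, 1.504 and 4.33 CPM in the same controls. The part of fat tissue in the fall of Thrsp was not tested. Of 14 fatty acid oxidation genes 7 rose and 1 fell on dorsal skin, led by Hadhb (0.52), Acadl (0.73) and Hadha (0.61), and 2 rose on the ear, Hadha (0.31) and Hadhb (0.22). With both directions together, the share on dorsal skin was near the 59.8% of all genes called. By direction, more were higher and fewer lower there than among all genes (32.3% higher, 27.6% lower). On the ear 21.2% of all genes were called, 14.3% higher and 6.98% lower. In IL-23-ear against control, edgeR and limma-voom called 0 genes of these 5 lists, and DESeq2 called 1, higher, in the export list. At an unadjusted p under 0.05, for which no share of all genes is given here, edgeR had 5 genes higher and 1 lower. The higher ones were 1 sterol or isoprenoid enzyme, 2 genes of the export list and 2 of further fatty acid synthesis, and the lower one was an oxidation gene.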

How the data were processed

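Spleen RNA of 14 mice was sequenced as paired reads of 150 bases from poly(A) libraries that carry no strand, per the labels' protocols. The deposited table holds raw counts per gene and library, as its whole numbers show. The build GRCm39 and the tools featureCounts 2.0.3, HISAT2 2.2.1, fastp 0.23.2, DESeq2 1.38.3 and StringTie 2.2.1 stand without roles in the submitters' processing notes. The treatment of multimapping reads is not given in the sources used here. Assembled loci with no gene name, 624 of 22740 entries and 0.484% to 0.674% of the counts, were left out.

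Tests ran in edgeR 4.0.16 under R 4.3.3 (TMM scaling, filterByExpr with a minimum count of 10, robust quasi-likelihood F test, 1 fit of all 14 libraries with 10 residual degrees of freedom). P-values were adjusted after Benjamini and Hochberg over all 15159 genes tested, in each of 5 comparisons, and a gene was called at an adjusted p under 0.05. CPM values are TMM-scaled. Coordinates and overlaps came from GENCODE mouse release M39 on GRCm39. DESeq2 1.42.0, limma-voom (limma 3.58.1), other scalings and filters, the 2 compared groups alone, a replicate block and each library left out in turn were the alternatives. The steps were tested on simulated data in which few genes changed, equally up and down. That test did not cover shifts as wide as those after dorsal imiquimod.

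The members and lists were chosen with earlier results of these data known. All 30 members were named, with up to 3 called genes of each further list by smallest adjusted p, except 1 gene that is not reported here. No 2 libraries of a group were alike within counting noise (18 pairs, chi-square over its degrees of freedom from 24.1 to 141.4). The labels call them biological replicates and give no pairing. Same-numbered libraries of different groups did not deviate together (13 pairs, r of -0.24 to 0.18, 1 over 0.1), so the numbers were not used as pairs.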

Additional observations from a re-analysis of the deposited data

Results flagged for a closer look

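In 60 groups of 4 libraries, 2 held a library far from the other 3, where chance alone flags about 1 in 20 such groups. Elovl6 was at 3.55 CPM in imiquimod-dorsal 2 and between 13.2 and 14.5 CPM in the other 3 imiquimod-dorsal libraries. Tm7sf2 was at 4.35 CPM in imiquimod-dorsal 3 and between 5.05 and 5.17 CPM in the other 3.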

How the results depend on the processing

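The 30 members in 5 comparisons gave 150 log2 fold changes, and direction and side of the threshold were kept for 146 under DESeq2, 140 under limma-voom, 147 under RLE size factors, 143 without a filter on low counts, 148 without haemoglobin and immunoglobulin genes, 129 in fits of the 2 compared groups and 127 under library totals. With library totals imiquimod-dorsal against control gave 3 members higher and 15 lower, and the sign turned for Ebp (-0.0077, adjusted p = 0.951), Insig2 (-0.32) and Srebf1 (-0.30), while imiquimod-ear against imiquimod-dorsal gave 1 lower. That scaling moved the median of all genes by construction, to -0.33 and 0.26. In fits of 2 groups, which hold fewer samples, imiquimod-ear against control gave 0 members higher and 1126 genes in all, IL-23-ear against imiquimod-ear 1 member lower and 1247 genes, and IL-23-ear against control 0 genes. For IL-23-ear against control DESeq2 called 132 genes and limma-voom 14, against 8 by edgeR, and RLE size factors, library totals and no filter gave 0 each; limma-voom gave 4 members lower in IL-23-ear against imiquimod-ear. The cause was not tested.

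The replicate numbers did not pair the samples. With a replicate block, 131 of 150 values were kept, imiquimod-ear against control gave 1 member higher, 0 lower and 311 genes, IL-23-ear against imiquimod-ear gave 0 members higher and 1261 genes, and IL-23-ear against control 0 genes.

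Leaving out 1 library at a time gave 4 to 9 members higher and 5 to 9 lower in imiquimod-dorsal against control. In imiquimod-ear against control it gave 1 to 14 members higher and 1066 to 4977 genes. In imiquimod-ear against imiquimod-dorsal it gave 10 to 18 higher and 2 to 4 lower. In IL-23-ear against imiquimod-ear it gave 0 to 1 higher, 1 to 17 lower and 1101 to 4463 genes, and in IL-23-ear against control 0 members and 0 to 12 genes. Every member had at least 125 counts in each library, and replicates differed by more than counting noise, so the spread between 3 or 4 mice limits precision.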
